A study of Mus musculus with 9 samples.

Results

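The 8 enzymes Hmgcs1, Idi1, Fdps, Fdft1, Sqle, Lss, Cyp51 and Dhcr7, which carry carbon along the route to cholesterol, were followed in mouse tail skin. They were taken by annotated gene symbol: 12 of the 42624 array features carried the name of 1 of them, and these belonged to 7 of the 10554 named genes. No feature was annotated as Sqle, the squalene epoxidase, so it was not analysed here. The skin came from female SKH-1 hairless mice operated on at 3 weeks of age and killed at day 14, in 3 biological states. In lymphedema the tail was incised around its circumference, its lymphatic trunks were shown by methylene blue and then closed by cautery. The surgical sham controls had the incision and the dye without the cautery, and the normal controls had no operation. Each state had 3 arrays, each from a pool of 3 mice, of skin distal to the wound stripped from cartilage. Every array set the tail RNA against 1 common RNA of whole late-gestation embryos. The state is a model of acute lymph stasis in a tail that also carried a wound, and because mice were pooled the spread is between pools and not between animals.

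Cholesterol is built from acetyl units through mevalonate, isoprenoid diphosphates and squalene to lanosterol, which is trimmed to cholesterol. The genes of this route are classical targets of SREBP-2, a membrane-bound transcription factor that is released when membrane sterol is low. In skin the sterol goes into the epidermal permeability barrier and into sebum.

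Values are log2 ratios of tail skin over embryo, with the median of every array set to 0. The deposited ratios ran the other way, which was settled on genes of known site: on each array 23 to 25 of 24 or 25 embryonic genes read below 0 after the sign was turned, and 11 to 13 of 14 adult skin genes read above 0. The log base and any centering by the authors are not given in the sources used here, and base 2 is assumed. The medians of the deposited columns were −0.068 to −0.002 in lymphedema, −0.093 to −0.06 in sham and −0.121 to −0.053 in normal skin, and 1.34% to 12.6% of values were missing per array. Basal keratinocyte markers had a median (6 genes) of 1.83 to 2.33 in lymphedema, 2.03 to 2.33 in sham and 1.99 to 2.16 in normal skin. This is no separate check of the skin origin, since Krt5 of that list also served to settle the direction. Neutrophil and macrophage markers set the sham array 3 apart from the other sham arrays, and values without it, chosen after seeing the data, stand beside those that rest on it most. In bulk skin, fewer cells of a type and less RNA per cell cannot be told apart.

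By limma no cholesterol synthesis enzyme passed an adjusted p of 0.05 in any of the 3 comparisons. The arrays of the compared states overlapped for every enzyme, except for Dhcr7 in lymphedema against normal skin, where 33.7% of all genes had no overlap. The enzymes Hmgcs1, Lss, Cyp51 and Dhcr7 were above the embryo on 9 of 9 arrays, and Idi1 was so in the 1 of its 2 clones that all arrays measured, the other being above it on 4 of 7, while Fdps was above it on 5 and Fdft1 on 6. Dhcr7 had the lowest lymphedema minus normal difference of the 7. It was called by SAM, a permutation-based test (q = 0.0411), though not by limma. SAM called 1822 of all 8644 genes in that comparison.

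Hmgcs1 makes HMG-CoA at the head of the route. Its clone 1, measured on all arrays, read 0.18, 0.68 and 0.08 on the lymphedema arrays, 0.11, 1.26 and 0.29 on the sham arrays, and 0.75, 0.71 and 0.60 on the normal arrays. Normal skin held a narrow band (0.69 ± 0.08, SD, n = 3), with lymphedema array 2 within it and lymphedema arrays 1 and 3 below it. The lymphedema mean was 0.31 ± 0.32 and the sham mean 0.55 ± 0.62 (SD, n = 3 each). The lymphedema minus normal difference was −0.38 (95% interval −0.99 to 0.24, limma adjusted p = 0.486). Hmgcs1 clone 2, missing on normal array 2, was also above the embryo on every array that measured it, and differed by −0.03 between lymphedema and normal skin.

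Idi1 isomerizes isopentenyl diphosphate to the form that primes chain growth. Its clone 2, measured on all arrays, had the highest ratios of the 7 enzymes, 3.00, 2.39 and 2.09 in lymphedema, 2.79, 2.78 and 1.58 in sham, and 1.51, 2.03 and 2.32 in normal skin. The states overlapped, with means of 2.49 ± 0.46 in lymphedema, 2.38 ± 0.69 in sham and 1.96 ± 0.41 in normal skin (SD, n = 3 each). The lymphedema minus normal difference was 0.54 (95% interval −0.23 to 1.31, limma adjusted p = 0.42).

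Fdps builds farnesyl diphosphate, the branch point toward sterols and toward protein prenylation. It read 0.21, 0.65 and 0.32 in lymphedema, 0.60, −0.09 and −0.08 in sham, and 0.23, −0.09 and −0.03 in normal skin. Lymphedema array 1 lay just under the highest normal array, so the states overlapped. The lymphedema minus normal difference was 0.36 (95% interval −0.13 to 0.84, limma adjusted p = 0.399).

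Fdft1, the squalene synthase, commits farnesyl diphosphate to sterols. The mean of its 4 clones read 0.34, 0.22 and −0.04 in lymphedema, 0.42, 0.43 and −0.01 in sham, and −0.14, 0.33 and 0.38 in normal skin. All 3 states spanned nearly the same range, and the lymphedema minus normal difference was −0.02 (95% interval −0.47 to 0.43, limma adjusted p = 0.97). Lss, which closes oxidosqualene into lanosterol, read 0.25, 0.24 and 0.48 in lymphedema, 0.37, 0.15 and 0.72 in sham, and 0.58, 0.35 and 0.20 in normal skin. Its difference between lymphedema and normal skin was −0.06 (95% interval −0.48 to 0.37, limma adjusted p = 0.901), again with overlap.

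Cyp51 removes a methyl group from lanosterol. It read 1.00, 1.15 and 0.49 in lymphedema, 1.56, 1.48 and 0.39 in sham, and 0.63, 0.61 and 1.21 in normal skin. The sham arrays 1 and 2 were the highest of the 9 and sham array 3 was the lowest. The lymphedema minus normal difference was 0.06 (95% interval −0.63 to 0.76, limma adjusted p = 0.937).

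Dhcr7 catalyzes the last step to cholesterol. It read 1.34, 0.91 and 0.85 in lymphedema, 2.12, 1.74 and 1.01 in sham, and 1.46, 1.51 and 1.63 in normal skin. All 3 lymphedema arrays lay below all 3 normal arrays, while sham array 3 fell within the lymphedema range. The means were 1.03 ± 0.27 in lymphedema, 1.62 ± 0.56 in sham and 1.53 ± 0.09 in normal skin (SD, n = 3 each). The difference was −0.50 between lymphedema and normal skin (95% interval −1.07 to 0.08, limma adjusted p = 0.313) and −0.59 between lymphedema and sham (95% interval −1.16 to −0.02, limma adjusted p = 0.668).

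**Figure D1:**
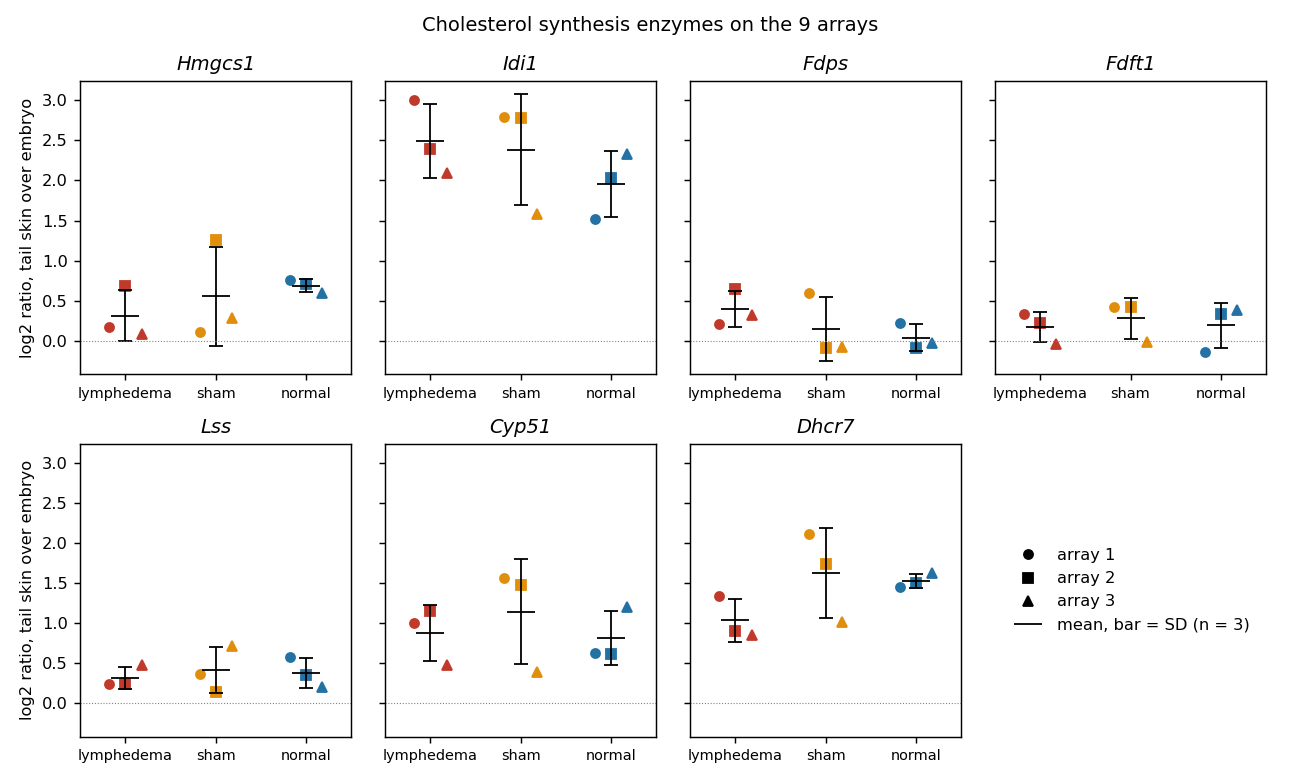
Log2 ratio of tail skin over embryo for the 7 measured enzymes, with 1 point per array, a horizontal mark at the mean and bars of 1 SD (n = 3) for lymphedema, sham and normal. Idi1 reached 3.00 on lymphedema array 1, and Dhcr7 shows all lymphedema points below all normal points.

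Lymphedema was set against normal skin to ask what lymph stasis and the operation changed together. With limma at an adjusted p under 0.05, 0 of 7 enzymes passed (0 of 7 also at an unadjusted p under 0.05), against 3.44% of all 8644 genes, and 20.5% of all genes at the unadjusted threshold. Dhcr7 was the 1 enzyme whose arrays did not overlap between these states, while 33.7% of all genes did not. The study's own kind of test, significance analysis of microarrays (SAM), called 1 of 7 at a false discovery rate of 5%, Dhcr7 with q = 0.0411. It called 1822 of all 8644 genes. SAM was run here on gene means of clones with a value on all arrays, whereas the study ran it on filtered and imputed features. These calls are therefore not those of the study. The median of the enzymes' differences was −0.02, with 3 of 7 above 0, and that of all genes was 0.10.

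Sham was set against normal skin to ask what the incision and the dye injection changed together. In limma 0 of 7 passed (0 of 7 unadjusted, 0 by SAM), beside 0.0% of all genes adjusted and 7.92% unadjusted. No enzyme separated the states by array, as 12.8% of all genes did. The differences of 6 of 7 were above 0, running to 0.43 for Idi1 and 0.33 for Cyp51, with a lowest limma adjusted p of 0.821. The median was 0.09, and 0.06 over all genes.

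Lymphedema was set against sham to ask what the cautery added to the incision and the dye injection. In limma 0 of 7 passed (0 by SAM), and 1 of 7, Dhcr7, passed at an unadjusted p under 0.05, while 0.0231% of all genes passed adjusted and 7.44% unadjusted. No enzyme separated these arrays, as 10.3% of all genes did. The median difference was −0.11, with 2 of 7 above 0, and 0.06 over all genes. The 3 comparisons share arrays pairwise, so the lymphedema values of Dhcr7 enter both comparisons that contain that state.

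**Figure D2:**
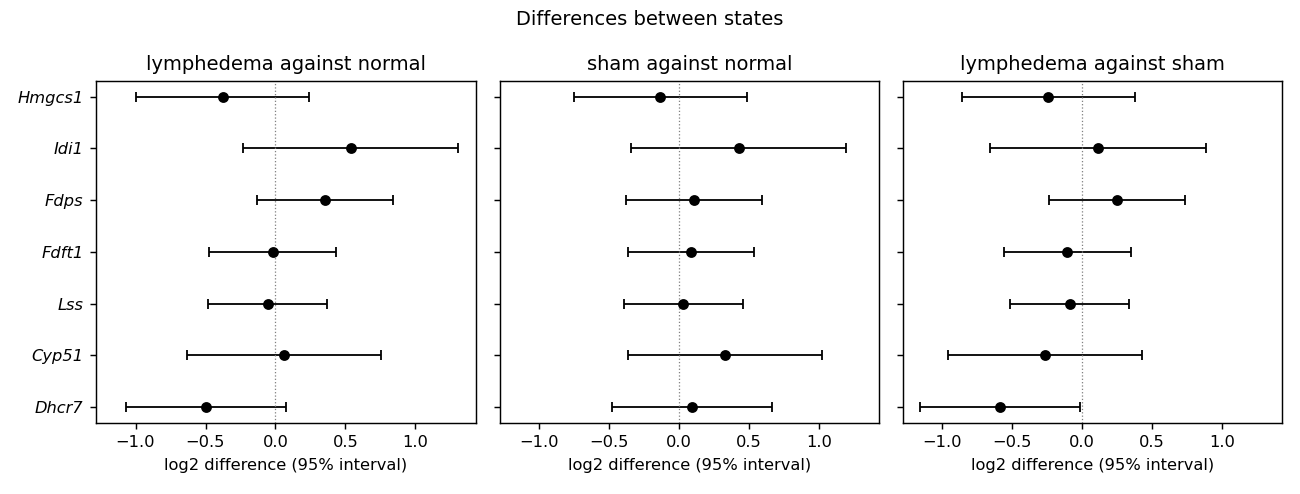
Log2 differences with 95% intervals from limma for lymphedema against normal, sham against normal and lymphedema against sham (n = 3 arrays per state). Every interval but that of Dhcr7 in lymphedema against sham (−1.16 to −0.02) holds 0.

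Missing values tied the arrays into sets that split the lymphedema arrays and kept all normal arrays apart from all sham arrays. Lymphedema array 1 and the 3 normal arrays alone had a value at 186 features, against at most 45 for any other of the 126 ways to divide the arrays into 4 and 5. With this set as a block, which compares lymphedema array 1 with the normal arrays, the differences ran from −0.51 for Hmgcs1 to 1.04 for Idi1 (lowest limma adjusted p = 0.448), and that of Dhcr7 was −0.19. Within the other set, which compares lymphedema arrays 2 and 3 with the sham arrays, they ran from −0.74 for Dhcr7 to 0.34 for Fdps (lowest limma adjusted p = 0.822). No set held both sham and normal arrays, so with the block that comparison rests on the lymphedema arrays, which lie in both sets. Sham minus normal then ran from −0.34 for Hmgcs1 to 1.19 for Idi1. The step between the sets comes from lymphedema array 1 against lymphedema arrays 2 and 3 alone.

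The clones of 1 gene did not always tell the same story. Among single features 2.94% passed in lymphedema against normal skin by limma, 0.0195% in sham against normal and 0.00326% in lymphedema against sham, and 0 of the 12 clones passed in any (2, 0 and 1 clones at an unadjusted p under 0.05; SAM was run on genes only). Idi1 clone 1, missing on lymphedema array 2 and sham array 3, read −0.44 and −1.21 in lymphedema, 0.16 and 0.16 in sham, and 0.54, −0.47 and 0.03 in normal skin. Its lymphedema minus normal difference was −0.86 (limma adjusted p = 0.207), opposite in sign to the 0.54 of clone 2, and its ratios lay near or below the embryo where clone 2 lay far above it. A direction for Idi1 in lymphedema therefore depends on the clone.

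Fdft1 clone 1 read 0.10, 0.09 and −0.20 in lymphedema, 0.51, 0.22 and 0.30 in sham, and 0.31, 0.75 and 0.59 in normal skin. Its lymphedema arrays lay below all sham and all normal arrays, with a difference of −0.55 from normal skin (SE 0.23, limma adjusted p = 0.194). Of all genes, 33.7% had no overlap between lymphedema and normal arrays and 10.3% between lymphedema and sham arrays. The share over single features was not computed. The 3 other Fdft1 clones differed by 0.12 to 0.18 in the opposite direction. Clones 2 and 4 carry the same sequence accession, yet clone 2 read below 0 on 9 of 9 arrays (−1.44 to −0.20) and clone 4 above 0 on 9 of 9 (0.13 to 1.44). They lay a mean of 1.46 apart per array, against a median of 0.82 over 356 such pairs on the array, of which 24.7% lay as far apart.

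**Figure D3:**
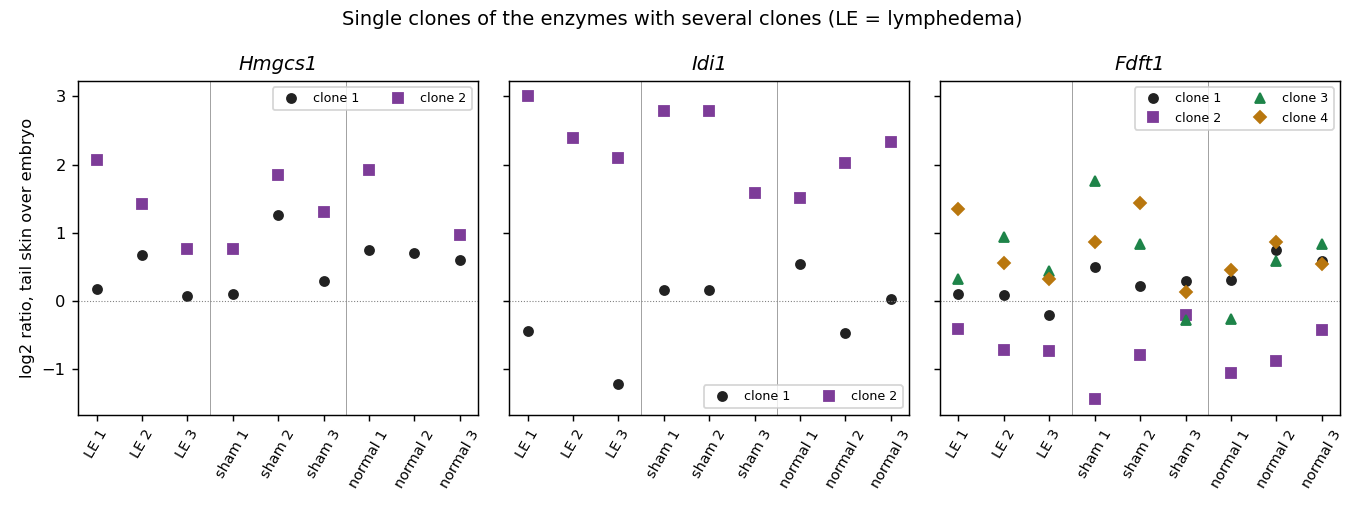
Log2 ratio of tail skin over embryo for each clone of Hmgcs1, Idi1 and Fdft1 on the lymphedema (LE), sham and normal arrays, with 1 symbol per clone and no point where a value was missing. On lymphedema array 3 the Idi1 clones read −1.21 and 2.09, and Fdft1 clone 2 is below 0 throughout.

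Across arrays some of the enzymes moved together, in a pattern that crossed the states. The mean of the 7 was 0.90, 0.89 and 0.61 in lymphedema, 1.14, 1.11 and 0.56 in sham, and 0.72, 0.78 and 0.90 in normal skin. By this mean, sham array 3 was the lowest and the other sham arrays the highest of the 9. The median of the 7 gave another order. Lymphedema array 1 was then the lowest (0.34, against 0.39 on sham array 3). Sham array 2 stayed the highest (1.26), but sham array 1 (0.60) was below lymphedema array 2 (0.68) and normal array 1 (0.63). State means were 0.80 ± 0.17 in lymphedema, 0.93 ± 0.33 in sham and 0.80 ± 0.10 in normal skin (SD, n = 3 each), and 1.12 in sham without array 3 (n = 2). Sham array 3 was the lowest sham array for 4 of 7 enzymes (57.1%, against 39.4% of all genes), and lymphedema array 3 the lowest of its state for 5 of 7 (71.4%, against 38.2%).

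Over the 9 arrays, which share the embryo reference, Cyp51 followed the mean of the other enzymes most closely (r = 0.945), then Fdft1 (0.784), Idi1 (0.605) and Dhcr7 (0.591). Fdps (0.045) and Hmgcs1 (0.036) did not follow it, and Lss ran opposite (−0.813). Without sham array 3 the values were 0.93 for Cyp51, 0.741 for Fdft1, 0.48 for Idi1, 0.512 for Dhcr7, −0.148 for Fdps, −0.089 for Hmgcs1 and −0.705 for Lss. The spread between pools of a state was wide for Idi1 (pooled SD 0.54, more than 95.1% of genes) and Cyp51 (0.47, more than 90.9%), and narrow for Lss (0.21, more than 31.3%), with 0.27 as the median of all genes. The genes most like the enzymes' mean among 8637 were Clk3 (r = 0.986), a kinase of splicing factors, St3gal5 (0.968), the synthase of ganglioside GM3, Zfand2b (0.968), Sec16a (0.965), which organizes sites of export from the endoplasmic reticulum, and Relch (0.961). Ebp, a sterol isomerase late in the same route, came sixth (0.956), and is named after its values were seen. The 6 other tested enzymes of that list ran from −0.488 for Ggps1 to 0.788 for Nsdhl. Ggps1 makes geranylgeranyl diphosphate on the prenylation branch, and the next lowest was Mvd at 0.513. Without sham array 3, Clk3 stayed first (0.981) and Ebp was at 0.938, while Lbr, at 0.519 with it, was at 0.146.

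Sham array 3 also stood apart in cell type markers. The median of 8 neutrophil markers was 1.33 to 1.72 in lymphedema, 1.03 on sham array 3 against −0.81 and −0.34 on sham arrays 1 and 2, and −1.41 to −1.12 in normal skin. That of 8 macrophage markers was 0.90 to 1.16 in lymphedema, 0.85 on sham array 3 against −0.52 and −0.49 on the others, and −0.88 to −0.53 in normal skin. For each of these lists 4 of 8 genes rose in lymphedema against normal skin by limma, S100a8, S100a9, Lcn2 and Camp of the neutrophil list and Aif1, Fcer1g, Lyz2 and Ms4a6b of the macrophage list. S100a8 and S100a9 are also in the list of wound keratinocyte markers, and were the 2 of its 4 tested genes that passed. The median of that list was 1.54 on sham array 3 against −0.63 and −0.34 on the others. The median of 7 sebaceous gland markers was 0.52 to 0.73 in lymphedema, 0.19 on sham array 3 against 0.97 and 0.68 on the others, and 0.66 to 0.74 in normal skin, and Dgat2, the last enzyme of triglyceride synthesis, fell in lymphedema against normal skin (−0.88, limma adjusted p = 0.0339), the 1 of 7 that passed, with Cidea at 0.56 and Pparg at 0.26. That of 6 skeletal muscle markers was −4.98 to −4.37 in lymphedema, −2.86 on sham array 3 against −4.75 and −3.78 on the others, and −5.22 to −4.32 in normal skin. That of 7 fibroblast markers was −1.33 to −1.03 in lymphedema, −0.50 on sham array 3 against −1.44 and −1.74 on the others, and −1.90 to −1.42 in normal skin. S100a8 kept its call with any 1 array left out, whereas the other 8 named markers, Dgat2 among them, each lost it without lymphedema array 2, with differences close to the full ones (S100a9 4.50 against 4.61, Fcer1g 2.38 against 2.48, Dgat2 −0.82 against −0.88). None of these markers passed with the set of arrays as a block, which leaves 1 lymphedema array beside the normal arrays (S100a8 2.64, S100a9 4.05, Fcer1g 2.43 and Dgat2 −0.89, lowest limma adjusted p = 0.106). In the remaining marker lists Fbln1, Kdr, Ccnb2, Hbb-y, B2m, H2-Aa and H2-D1 also rose in lymphedema against normal skin by limma. The part of these cell types in the enzyme values was not tested. Without sham array 3, sham minus normal was 0.83 for Idi1 and 0.71 for Cyp51 (lowest limma adjusted p of the 7 = 0.195), and lymphedema minus sham was −0.89 for Dhcr7 (limma adjusted p = 0.0706), where the full set gave −0.59.

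**Figure D4:**
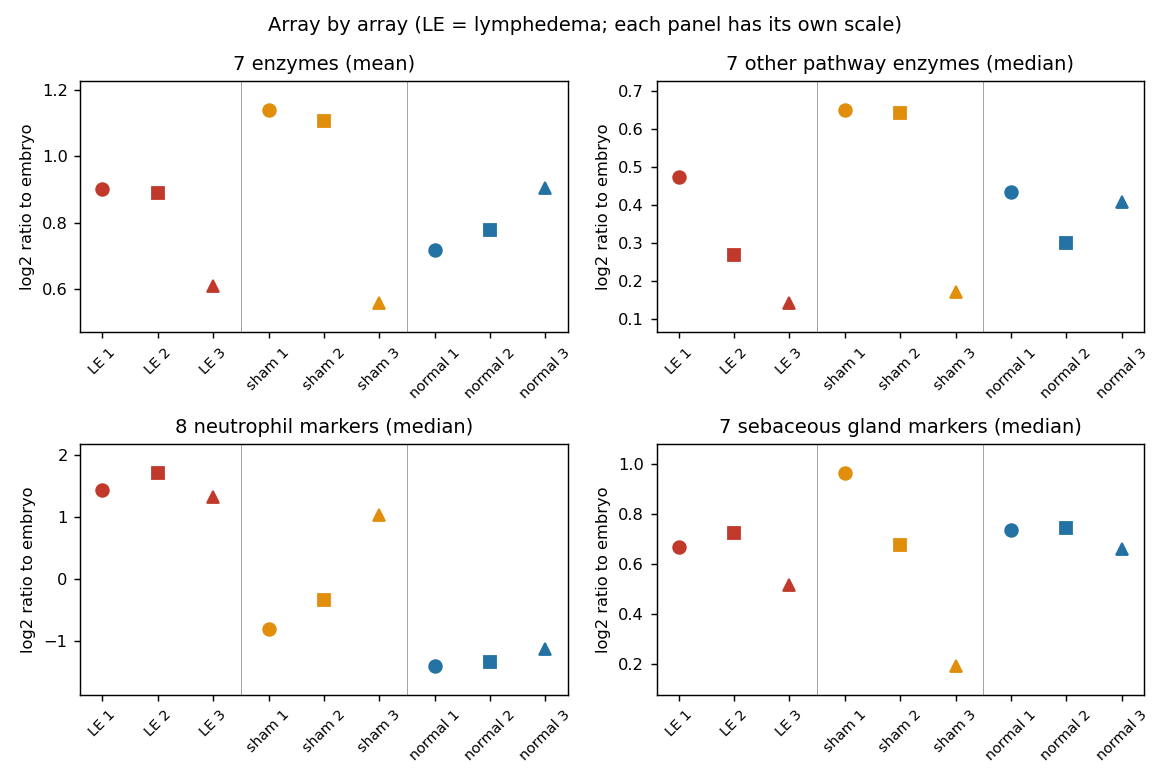
Array by array, the mean log2 ratio of the 7 enzymes, the median of 7 other enzymes of the route, and the medians of 8 neutrophil and 7 sebaceous gland markers, for lymphedema (LE), sham and normal, each panel on its own scale. The 7 other enzymes include Ggps1 of the prenylation branch. Sham array 3 has the lowest enzyme mean (0.56) and a neutrophil median of 1.03, near the lymphedema arrays.

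The other enzymes listed with the route, which include Ggps1 of the prenylation branch, had no call by limma either. Of 15 listed, 8 were on the array and 7 tested, and by limma 0 passed in each comparison (1, 0 and 1 at an unadjusted p under 0.05 in lymphedema against normal, sham against normal and lymphedema against sham, and 1, 0 and 0 by SAM). Of all genes, 20.5%, 7.92% and 7.44% passed unadjusted in these comparisons. Msmo1, which demethylates sterols after Cyp51, read 2.00, 2.59 and 1.69 in lymphedema, 2.21, 2.06 and 1.40 in sham, and 1.75, 1.69 and 1.32 in normal skin (lymphedema minus normal 0.51, limma adjusted p = 0.324). Mvd, which makes isopentenyl diphosphate, read 0.53, 0.70 and 0.54 in lymphedema, 1.33, 0.97 and 0.74 in sham, and 1.09, 0.97 and 0.95 in normal skin (lymphedema minus normal −0.41, limma adjusted p = 0.231). Like Dhcr7, Mvd had all its lymphedema arrays below all normal arrays, and 33.7% of all genes had no overlap between these states. Array 3 was the lowest of its state for 5 of these 7 enzymes in lymphedema, 6 in sham and 5 in normal skin (71.4%, 85.7% and 71.4%, against 38.2%, 39.4% and 38.4% of all genes).

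Of 5 tested regulators of the route 0 passed by limma in lymphedema against normal skin (0 unadjusted, 1 by SAM). Of all 8644 genes, 3.44% passed there by limma and 20.5% unadjusted, and SAM called 1822. Scap, the escort of SREBP out of the endoplasmic reticulum, differed by −0.43 between lymphedema and normal skin (limma adjusted p = 0.32), and Srebf1, Insig2 and both site proteases by −0.19 to 0.10. Of 8 genes of sterol uptake and traffic, 1 passed by limma in lymphedema against normal skin (2 unadjusted, 2 by SAM). This was Lrp1, an endocytic receptor for remnant lipoproteins, which rose. It read 1.48, 1.41 and 1.22 in lymphedema, 1.09, 0.85 and 0.91 in sham, and 0.66, 0.34 and 0.18 in normal skin, a difference of 0.97 (SE 0.18, limma adjusted p = 0.0268). The 3 states did not overlap for Lrp1, with sham between. Of all genes, 33.7% had no overlap in lymphedema against normal skin, 12.8% in sham against normal and 10.3% in lymphedema against sham.

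Efflux genes had 0 of 6 past the threshold by limma in lymphedema against normal skin (2 unadjusted, 2 by SAM). For this and the next lists, the shares over all 8644 genes were 3.44% by limma and 20.5% unadjusted, with 1822 called by SAM. The cholesterol exporter Abca1 differed by 1.17 (limma adjusted p = 0.0632) and Pltp, a phospholipid transfer protein, by 0.82 (limma adjusted p = 0.0808) between lymphedema and normal skin. Of 3 genes of sterol breakdown 0 passed by limma (2 unadjusted, 2 by SAM), with Hsd3b7 at 0.67 and Cyp7b1 at 0.57. Among 7 fatty acid genes of the SREBP-1 program, Elovl6, a fatty acid elongase, fell in lymphedema against normal skin. It read 1.24, 1.18 and 0.50 in lymphedema, 1.23, 1.63 and 1.39 in sham, and 2.29, 1.82 and 1.74 in normal skin, a difference of −0.97 (SE 0.24, limma adjusted p = 0.0488). Gpam (−0.84), Me1 (−0.62) and Fasn (−0.56) had lower values without passing by limma. Of the 7 fatty acid genes, 3 passed unadjusted and 4 by SAM. The list median was −0.56, where the cholesterol enzymes had −0.02. Of 9 genes of the isoprenoid branch, which uses farnesyl and geranylgeranyl groups for proteins, dolichol and ubiquinone, 0 passed by limma (2 unadjusted, 1 by SAM). By limma and by SAM no gene of these lists passed in sham against normal skin or in lymphedema against sham (0 to 2 per list unadjusted). Unadjusted, 7.92% and 7.44% of all genes passed in these comparisons. With the set of arrays as a block, Lrp1 differed by 1.09 (limma adjusted p = 0.242) and Elovl6 by −0.71 (limma adjusted p = 0.467). Leaving out any 1 lymphedema or normal array also left neither past the threshold (limma adjusted p 0.0505 to 0.11 for Lrp1 and 0.0899 to 0.178 for Elovl6), as leaving out sham array 2 did for Elovl6 (limma adjusted p = 0.0598). With 1 clone per gene Lrp1 differed by 0.99 (limma adjusted p = 0.0772) and Elovl6 by −0.62 (limma adjusted p = 0.296).

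Promoters were examined because SREBP-2 acts on this route through a short element near the start of its targets, usually beside a box for the factor NF-Y. RefSeq windows (GRCm38.p6, 250 bases before to 50 after each start) were matched for 5 of the 8 enzymes, Hmgcs1, Idi1, Lss and Cyp51 with 1 start each and Dhcr7 with 3. Searched on both strands were the sterol regulatory element core CACNCCAC, the NF-Y box CCAAT and the Sp1 box GGGCGG. The core was in 1 of these 7 windows, that of Hmgcs1 (CACCCCAC, at −136 from the start), and in 6.24% of all 32851 windows. The NF-Y box was in 5 of 7 windows, 1 of them for each of the 5 genes, and in 37.4% of all windows. The Sp1 box was in 6 of 7 and 35.7%, and the core together with an NF-Y box in 1 of 7 and 2.09%. A match is a description of these letters, and a window without one says nothing of the factor.

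The 3 windows shown are Hmgcs1, which held the core and 4 NF-Y boxes, Cyp51, whose profile followed the other enzymes most closely, and the Dhcr7 start with NF-Y boxes, since Dhcr7 had the lowest lymphedema values relative to normal skin. Capitals mark the core and the NF-Y box (ATTGG is the box on the other strand). The windows lie at chr13:119690101-119690400 on the plus strand, chr5:4104648-4104947 on the minus strand and chr7:143829964-143830263 on the plus strand, and each spans an annotated start of its gene.
Hmgcs1: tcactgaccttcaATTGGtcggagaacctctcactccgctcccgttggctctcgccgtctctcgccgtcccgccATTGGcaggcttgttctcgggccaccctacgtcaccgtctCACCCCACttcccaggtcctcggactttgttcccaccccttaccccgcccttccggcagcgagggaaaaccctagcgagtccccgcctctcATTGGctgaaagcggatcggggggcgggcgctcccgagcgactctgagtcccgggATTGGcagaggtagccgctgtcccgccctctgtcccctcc
Cyp51: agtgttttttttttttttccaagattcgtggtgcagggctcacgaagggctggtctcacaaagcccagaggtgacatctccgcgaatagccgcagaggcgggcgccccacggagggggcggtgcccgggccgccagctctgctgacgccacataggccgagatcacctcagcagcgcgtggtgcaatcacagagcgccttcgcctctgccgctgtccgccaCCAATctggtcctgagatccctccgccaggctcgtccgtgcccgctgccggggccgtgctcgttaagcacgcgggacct
Dhcr7: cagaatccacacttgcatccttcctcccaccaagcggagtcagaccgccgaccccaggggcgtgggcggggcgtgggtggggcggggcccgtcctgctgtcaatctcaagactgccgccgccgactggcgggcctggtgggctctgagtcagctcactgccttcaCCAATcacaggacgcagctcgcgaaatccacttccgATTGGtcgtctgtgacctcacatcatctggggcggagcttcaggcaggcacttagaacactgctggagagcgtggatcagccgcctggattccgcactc
Hmgcs1 carried the most boxes of the 3 and followed the mean of the other enzymes least closely of them over the arrays. The lymphedema minus normal differences were −0.38 for Hmgcs1, 0.06 for Cyp51 and −0.50 for Dhcr7. A link between boxes and values was not tested.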

How the data were processed

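Tail skin RNA was hybridized against embryo RNA on 2-colour mouse cDNA arrays. The deposited values are log2 ratios (base assumed), made by the authors with background subtraction and dye normalization. The reference-signal filter and nearest-neighbor imputation that the methods describe were not seen in the table, which keeps its missing values. Labels and methods disagree on the dyes, so the direction was set from embryonic and adult skin genes and the sign was turned. Gene names came from the platform annotation: 20678 features named 1 gene, 953 several and 20993 none, and only the first were used. Array medians were set to 0, clones with a value on all 9 arrays were averaged per gene, and 8644 genes were fitted in 1 limma model of 3 states (limma 3.58.1, R 4.3.3) with Benjamini-Hochberg adjustment. Clones with missing values were fitted with at least 2 values per state. The number of arrays limits the precision, and p-values measure the spread between pools. The model was tested on simulated data. Alternatives covered centering, scaling, quantile normalization, missing values, 1 clone per gene, blocks, each array left out and SAM with all 20 permutations. Named genes were the members, list genes past the threshold, the genes with the largest lymphedema minus normal differences in each sterol list (up to 3), and the 5 genes most like the members' mean over the arrays. The members and the gene lists were chosen with earlier results of these data known.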

Additional observations from a re-analysis of the deposited data

How the results depend on the processing

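Over 19 alternatives no enzyme passed an adjusted p of 0.05 in limma (lowest 0.0706, Dhcr7 in lymphedema against sham without sham array 3), and SAM called 1 enzyme in lymphedema against normal skin. The enzymes' median there was 0.145 with the set of arrays as a block. In lymphedema against normal skin, Idi1 turned to −0.04 with 2 of 3 values per state and −0.092 with imputation, Fdft1 to 0.145 with the set block and Msmo1 to −0.28 with 1 clone per gene. In sham against normal skin, Dhcr7 turned to −0.055 with quantile normalization, Fdft1 to −0.21 with 1 clone, and Fdps to −0.17 and Lss to −0.081 with the set block. In lymphedema against sham, Idi1 turned to −0.14 with 2 of 3 values, −0.31 with imputation and −0.14 with the set block. With 1 array left out, the lymphedema minus normal difference ranged from −0.184 to 0.084 for Fdft1, −0.144 to 0.043 for Lss and −0.073 to 0.259 for Cyp51. That of sham minus normal ranged from −0.488 to 0.088 for Hmgcs1, −0.121 to 0.225 for Fdps, −0.077 to 0.232 for Fdft1, −0.119 to 0.165 for Lss and −0.156 to 0.396 for Dhcr7. That of lymphedema minus sham ranged from −0.464 to 0.112 for Hmgcs1, −0.288 to 0.314 for Idi1 and −0.223 to 0.062 for Lss. The cause of these turns was not tested.

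Over all genes, lymphedema against normal skin gave 297 calls, and 842 with the arrays of these states only, 189 with 1 clone per gene, 0 with the set block, 1822 with SAM and 11 to 623 with 1 array left out. Sham against normal skin gave 0, and up to 12 with 1 array left out and 14 with SAM. Lymphedema against sham gave 2, 10 with arrays scaled to 1 spread, and 0 to 96 with 1 array left out. Replicate numbers did not pair the arrays (r between −0.244 and 0.279 for same-numbered arrays), and the fit with the replicate number as a block gave 145 calls in lymphedema against normal skin, 0 of them an enzyme. Under that block Elovl6 had an adjusted p of 0.06, Dgat2 of 0.0546 and Camp of 0.0741 (limma). Elovl6 was at 0.0701 with scaling and 0.0505 with 2 of 3 values, and with no centering Camp was at 0.0544 and Aif1 at 0.0601. The number of arrays, 3 a state, limits what differences could be seen.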
